A study of Mus musculus with 6 samples.

Results

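Slc2a2, G6pc2, Abcc8, Kcnj11 and Trpm5 are the 5 genes described here, chosen by name as the glucose sensing genes of β-cells. All probe sets annotated to 1 of these genes and to no other were taken, which gave 9 of the 45101 probe sets on the array for 5 of 18194 named genes. Signals came from 3 Jarid2 Δpanc and 3 Jarid2 WT pancreases of C57BL/6 embryos at e15.5, read on Affymetrix Mouse Genome 430 2.0 arrays, on which each gene is represented by short oligonucleotides grouped in probe sets. Jarid2 Δpanc embryos carried Pdx1-Cre and floxed Jarid2 alleles (Jarid2 flox/flox), so that Jarid2, a component that accompanies the Polycomb repressive complex PRC2, was deleted in cells that had expressed Pdx1. Jarid2 WT were control littermates, labelled wild-type, whose Cre and loxP status is not given in the sources used here. The study's reporter staining placed recombination in the epithelium and found it mosaic there, so that the whole organ also held mesenchyme, vessels and unrecombined epithelium. Each title names 1 embryo, but no litter is given, and p-values measure the spread between these samples only.

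A β-cell senses glucose by burning it. Glucose enters through the transporter GLUT2 (Slc2a2), is phosphorylated, and its breakdown raises the ratio of ATP to ADP, which closes the ATP-sensitive potassium (KATP) channel. That channel is built from the pore Kir6.2 (Kcnj11) and the sulfonylurea receptor SUR1 (Abcc8), and its closure depolarises the cell, opens calcium channels and releases insulin. G6pc2 is an islet glucose-6-phosphatase that runs against this step by removing the phosphate again, and Trpm5 is a calcium-activated cation channel of β-cells and of tuft and taste cells.

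In Jarid2 Δpanc pancreases G6pc2 was the 1 gene of the 5 whose signal lay below every Jarid2 WT value, at 44.5% of the Jarid2 WT level. Its log2 difference was -1.17 over all arrays, and -0.64 over the arrays with a high signal of Xist, the RNA of X inactivation. Xist was high in every Jarid2 Δpanc pancreas but in only 1 Jarid2 WT pancreas. The glucose transporter, both KATP channel genes and Trpm5 had overlapping values in the 2 groups. G6pc2 was lower by about as much as Ins2 was, and the other 4 genes were therefore higher relative to Ins2 in every Jarid2 Δpanc pancreas. No probe set of the 5 genes, and none of all those tested, passed an adjusted p of 0.05.

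These promoters are printed to show the sequence upstream of the member that separated the groups, G6pc2, and of the transporter that did not, Slc2a2. RefSeq (GRCm38.p6) lists G6pc2 at chromosome 2, bases 69211073 to 69227993, with 2 annotated starts 8876 bases apart, and Slc2a2 at chromosome 3, bases 28697903 to 28728361. Each window runs from 250 bases before the start site to 50 after it, 5′ to 3′, and capitals mark E-boxes, the CANNTG letters read by basic helix-loop-helix factors such as Neurod1.
G6pc2 first start, chr2:69210823-69211122, plus strand: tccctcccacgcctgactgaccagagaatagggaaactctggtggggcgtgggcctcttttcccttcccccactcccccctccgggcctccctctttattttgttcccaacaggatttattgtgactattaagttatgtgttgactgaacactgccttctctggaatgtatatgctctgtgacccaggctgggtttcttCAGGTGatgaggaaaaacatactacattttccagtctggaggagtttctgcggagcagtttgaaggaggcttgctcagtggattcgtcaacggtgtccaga
G6pc2 second start, chr2:69219699-69219998, plus strand: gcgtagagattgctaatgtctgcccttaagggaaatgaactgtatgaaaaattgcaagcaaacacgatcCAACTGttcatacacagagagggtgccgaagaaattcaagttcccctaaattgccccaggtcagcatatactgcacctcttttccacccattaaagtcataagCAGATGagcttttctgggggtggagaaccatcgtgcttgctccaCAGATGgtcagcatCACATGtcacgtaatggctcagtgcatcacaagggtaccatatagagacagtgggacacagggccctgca
Slc2a2, chr3:28697653-28697952, plus strand: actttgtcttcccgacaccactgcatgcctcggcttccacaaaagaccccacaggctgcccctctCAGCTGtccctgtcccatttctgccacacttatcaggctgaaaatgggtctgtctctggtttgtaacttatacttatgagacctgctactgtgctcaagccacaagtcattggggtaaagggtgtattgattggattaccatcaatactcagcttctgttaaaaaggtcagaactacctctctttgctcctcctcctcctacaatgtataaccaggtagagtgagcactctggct
The second G6pc2 window held 4 E-boxes, at 181, 78, 34 and 20 bases before the start site, whereas the first G6pc2 window and that of Slc2a2 held 1 each and that of Trpm5 held 0. Of the 32851 promoters of RefSeq given here, 72.3% held at least 1 E-box, and 6.49% held 4 or more. The letters TGCTGA, part of the element read by MAF factors, occurred 2 times in the second G6pc2 window, at 121 and 27 bases before the start, and in none of the other 3 windows. At least 1 such match was found in 19.5% of all promoters, and 2 or more in 2.36%. The homeobox core TAAT is read by factors such as Pdx1 and Nkx6-1. It was matched 3 times in the second G6pc2 window and 1 time in each of the other 3. At least 1 TAAT was found in 58% of all promoters, and 3 or more in 20%. TAATTA, TGACGTCA and TATAAA, held by 5.29%, 1.79% and 13.6% of all promoters, had no match in any of the 4 windows. All motifs were searched on both strands, TAATTA contains TAAT, and a match is a run of letters only.

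The arrays were of even scale, with a median signal of 35 to 38 and 28.2 to 30.4% of the probe sets at or under 16, the floor to which lower values were set. Of the 31110 probe sets with 1 gene symbol and a signal above that floor on at least 1 array, 0 (0%) were lower and 0 (0%) were higher in Jarid2 Δpanc at an adjusted p under 0.05 (limma, Benjamini-Hochberg), the smallest adjusted p being 0.27. At an unadjusted p under 0.05, 857 were lower and 1462 higher. All Jarid2 Δpanc values lay below all Jarid2 WT values in 5.18% of these probe sets and above them in 6.87%. The Jarid2 array signal was not lower, with log2 differences of 0.01 to 0.14 on its 3 probe sets, whose place relative to the deleted exon is not given. By qRT-PCR of the loxP-flanked exon itself, the study found it reduced in Jarid2 Δpanc pancreases at e15.5. The labelled tissue was borne out by its genes: Ptf1a, an acinar and progenitor factor, read 1579 to 2205 in Jarid2 Δpanc and 1987 to 2699 in Jarid2 WT, and Neurog3, the factor of endocrine progenitors, read 1116 to 1456 in Jarid2 Δpanc and 1415 to 1575 in Jarid2 WT. Ucn3 and Glp1r, genes of mature β-cells, did not exceed 7 and 18 on any array. A description label that names islets in glucose was not followed.

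G6pc2 (1423529_at) read 44, 50 and 47 in the Jarid2 Δpanc pancreases, against 120, 134 and 73 in the Jarid2 WT pancreases. The Jarid2 Δpanc values were close to each other, and the Jarid2 WT values were not: replicate 3 was 54.5% of the highest. This was the only G6pc2 probe set, and its Jarid2 Δpanc values were dim, beside array medians of 35 to 38. The means were 47.0 ± 3.0 in Jarid2 Δpanc and 109 ± 31.95 in Jarid2 WT (SD, n = 3 each), and the log2 fold change was -1.17 ± 0.24 (SE; 95% interval -1.74 to -0.60; limma adjusted p = 0.347). This corresponds to 44.5% of the Jarid2 WT level, with an interval of 30.0 to 66.0%. In an exact two-sided permutation test p was 0.1, the smallest that 3 against 3 samples allow. Among all 31110 probe sets tested, 0.212% had a lower log2 fold change. Fewer β-cells and less G6pc2 RNA per cell cannot be told apart in RNA of a whole organ.

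Several other measures also differed between the arrays, and their part in the G6pc2 difference was not tested. The signal summed over 12 measured β-cell markers, most of it from Ins2 and Iapp, was 7322 to 8718 in Jarid2 Δpanc and 13766 to 16271 in Jarid2 WT. Of the 11 markers tested, 8 were below all Jarid2 WT values, beside 6.18% of all genes. The exceptions were Glp1r, near the floor, and the transcription factor genes Pdx1 (421, 419 and 442 in Jarid2 Δpanc, 445, 376 and 396 in Jarid2 WT) and Nkx6-1 (284, 373 and 327 in Jarid2 Δpanc, 368, 297 and 307 in Jarid2 WT), whose values overlapped. Jarid2 WT replicate 3, the lowest Jarid2 WT array for G6pc2, was also the lowest of its group for Ins2, and its 12 skeletal muscle markers summed to 11363, against 305 to 385 on the other 5 arrays. The same array was the only Jarid2 WT array with a high signal of the X-inactivation RNA Xist (4390). Xist, an RNA of female cells, read 4197 to 4905 in Jarid2 Δpanc and 12 and 24 in the other Jarid2 WT pancreases. Embryo sex is not labelled, and sex read from Xist cannot be fully told apart from genotype on these arrays. Over the 4 arrays with high Xist alone, the G6pc2 log2 difference was -0.64, and without Jarid2 WT replicate 3 it was -1.43. Malat1, a nuclear noncoding RNA, read 2756 to 3486 in Jarid2 Δpanc and 1146 to 1503 in Jarid2 WT on its brightest probe set.

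Slc2a2 (1449067_at), the glucose transporter gene, read 147, 185 and 180 in Jarid2 Δpanc, against 170, 219 and 160 in Jarid2 WT. The groups overlapped, with the lowest value in Jarid2 Δpanc and the highest in Jarid2 WT. The means were 171 ± 20.6 in Jarid2 Δpanc and 183 ± 31.6 in Jarid2 WT (SD, n = 3 each), with a log2 fold change of -0.09 ± 0.16 (SE; limma adjusted p = 0.892). The 95% interval, 71.2 to 123% of the Jarid2 WT level, leaves a lower or a higher level possible. GLUT2 is also the transporter of liver cells, and Alb, the albumin gene, read 137, 47 and 790 in Jarid2 Δpanc and 58, 751 and 86 in Jarid2 WT, so that 1 array of each group carried it high. The 10 liver markers summed to 9254 to 11996 in Jarid2 Δpanc and 11615 to 15172 in Jarid2 WT, of which Ttr, also an islet gene, made most, and 4 of them stayed under 64 on all arrays. Their part in the Slc2a2 signal was not tested.

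The KATP channel genes are neighbours on chromosome 7 in GRCm38.p6, Kcnj11 at bases 46097123 to 46100952 and Abcc8 at bases 46104523 to 46180039, with 3570 bases between them. Abcc8 (1455765_a_at) read 225, 324 and 271 in Jarid2 Δpanc, against 308, 305 and 293 in Jarid2 WT. The Jarid2 WT values were almost level and the Jarid2 Δpanc values lay on both sides of them, with a log2 fold change of -0.16 ± 0.15 (SE; 95% interval -0.52 to 0.20; limma adjusted p = 0.833). A second Abcc8 probe set (1457066_at) read 67, 70 and 64 in Jarid2 Δpanc and 62, 72 and 79 in Jarid2 WT, and gave -0.08 ± 0.12 (SE). Kcnj11 (1455417_at) read 568, 382 and 406 in Jarid2 Δpanc, against 438, 378 and 459 in Jarid2 WT. The first Jarid2 Δpanc pancreas was the highest of the 6 and the other Jarid2 Δpanc values were within the Jarid2 WT range. The log2 fold change was 0.07 ± 0.18 (SE; 95% interval -0.36 to 0.50; limma adjusted p = 0.935). The dim Kcnj11 probe set 1450515_at read 28, 13 and 26 in Jarid2 Δpanc and 24, 29 and 25 in Jarid2 WT, and 1 of these values lay under the floor.

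The proteins form 1 channel, and their transcripts were read together over the 6 arrays. The pancreas with the highest Kcnj11 signal, Jarid2 Δpanc replicate 1, had the lowest Abcc8 signal. Pearson's r between their log2 values was -0.84, and -0.30 over the 5 arrays without that pancreas, so that the first value rests on it. Slc2a2 and Abcc8 gave 0.64, and 0.21 without it, and Kcnj11 and Slc2a2 gave -0.89, and -0.88 without it. These are descriptions over 6 arrays that share scale and RNA amounts within each array. Neurons also use KATP channels, and the 7 neuron and neural crest markers summed to 512 to 728 in Jarid2 Δpanc and 438 to 692 in Jarid2 WT; their part was not tested.

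Trpm5, on chromosome 7 at bases 143071529 to 143094642, had 3 probe sets that did not point 1 way. The brightest (1418783_at) read 45, 86 and 80 in Jarid2 Δpanc, against 68, 54 and 72 in Jarid2 WT. Jarid2 Δpanc held both the lowest and the highest value, and the log2 fold change was 0.08 ± 0.27 (SE; 95% interval -0.58 to 0.73; limma adjusted p = 0.948), the widest interval of the 5 genes' brightest probe sets. Probe set 1443413_s_at read 27, 34 and 39 in Jarid2 Δpanc and 29, 32 and 33 in Jarid2 WT, and gave 0.07 ± 0.16 (SE). Probe set 1449224_at read 22, 36 and 23 in Jarid2 Δpanc and 36, 36 and 33 in Jarid2 WT. Here 2 of the Jarid2 Δpanc pancreases were below the Jarid2 WT values and 1 matched the highest, with a log2 fold change of -0.41 ± 0.20 (SE; limma adjusted p = 0.72). Without Trpm5, the tuft and taste cell markers summed to 292 to 431 in Jarid2 Δpanc and 291 to 350 in Jarid2 WT, with 6 of 8 under 64 on every array and 2, Il25 and Tas1r3, at the floor throughout.

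**Figure D1:**
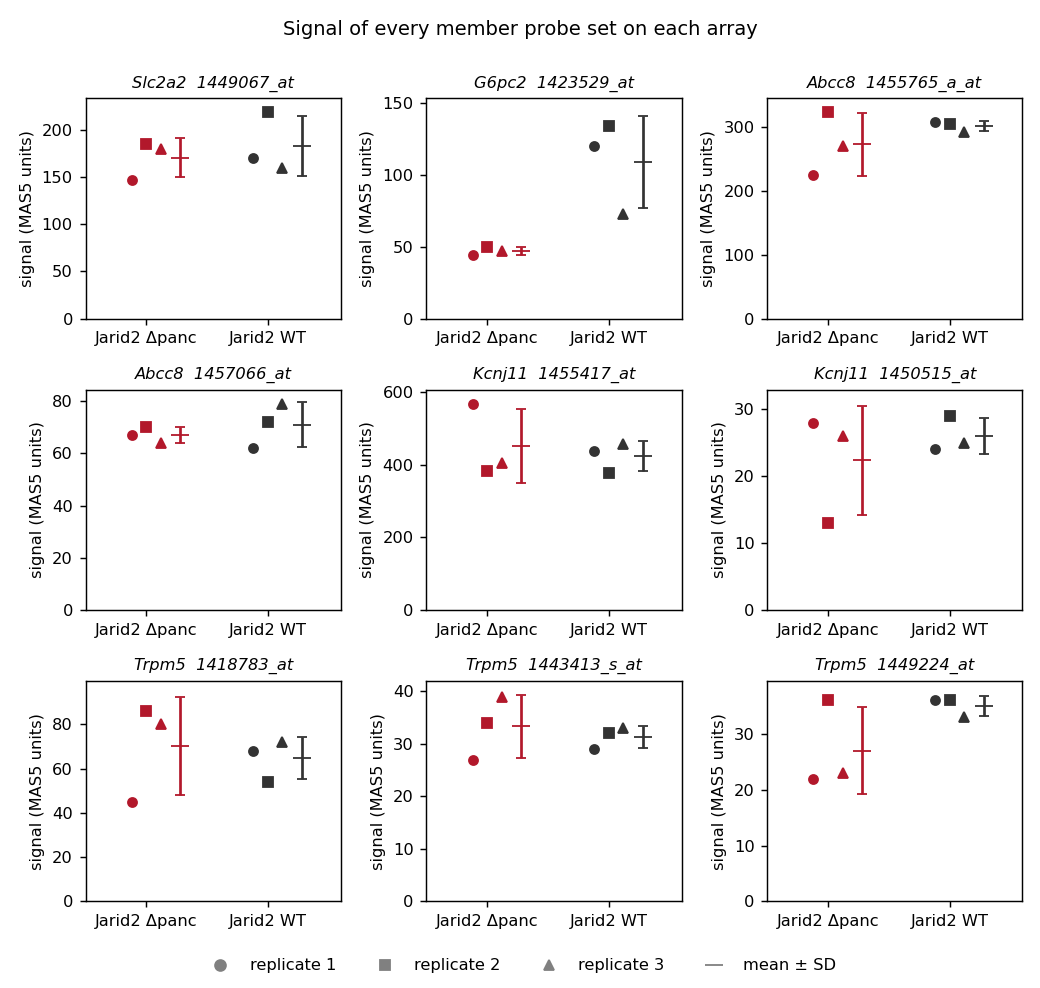
Signal in MAS5 units (y axes from 0) of each of the 9 probe sets in the 3 Jarid2 Δpanc (red, left) and 3 Jarid2 WT (black, right) pancreases, with symbols for replicates and bars for the mean ± SD. Only in G6pc2, at 44 to 50 against 73 to 134, do the groups not overlap.

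Of the 9 probe sets, 1 lay below all Jarid2 WT values, 0 lay above and 8 overlapped, beside the 5.18% and 6.87% of all probe sets tested. With the brightest probe set of each gene, 1 of 5 genes lay below, beside 6.18% of the 16621 genes, and 0 lay above, beside 6.25%. The log2 fold changes of the 9 probe sets had a median of -0.09, that of all probe sets tested being 0.03, and 6 of 9 were negative. With 1 gene apart from the rest, the count itself is not a result about the 5 genes together.

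The genes were also set against β-cell transcripts on the same array. These ratios restate the fold changes above minus that of the transcript chosen, which was picked with its own difference known, so that they carry no test. Ins2, an insulin gene, read 2490, 2720 and 3234 in Jarid2 Δpanc, against 5763, 6597 and 5117 in Jarid2 WT, a log2 fold change of -1.05 ± 0.15 (SE; limma adjusted p = 0.311). G6pc2 minus Ins2, on a log2 scale with the Jarid2 WT mean at 0, was -0.04, 0.01 and -0.33 in Jarid2 Δpanc and 0.19, 0.16 and -0.35 in Jarid2 WT. The groups overlapped, the difference being -0.12 ± 0.21 (SE, n = 3 each). On its brightest probe set Iapp, the amylin gene secreted with insulin, stood likewise at -0.05 ± 0.08 (SE) relative to Ins2. Its other probe sets had log2 fold changes of their own of -1.19, -1.41 and -0.35. Slc30a8, the zinc transporter of insulin granules, stood at -0.21 ± 0.37 (SE) relative to Ins2. It was dim, at 38, 18 and 34 in Jarid2 Δpanc and 59, 76 and 71 in Jarid2 WT.

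The other 4 genes stood higher relative to Ins2 in Jarid2 Δpanc. Slc2a2 minus Ins2 was 0.92, 1.12 and 0.83 in Jarid2 Δpanc, against -0.09, 0.09 and -0.001 in Jarid2 WT, a difference of 0.96 ± 0.10 (SE) or 1.94-fold. Abcc8 differed by 0.89 ± 0.18, Kcnj11 by 1.12 ± 0.33 and Trpm5 by 1.13 ± 0.33 (SE, n = 3 each). All 4 ratios were higher in every Jarid2 Δpanc than in every Jarid2 WT pancreas, which follows from overlapping signals of their own and the lower Ins2 signal. The cell types that carry these 4 transcripts were not separated, and a source outside β-cells cannot be told apart from a higher level per β-cell.

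The mean log2 signal of 12 markers shared by islet cell types was itself lower, by a log2 difference of -0.29, beside -1.05 for Ins2. Neurog3, the factor of endocrine progenitors, was among the 12 genes of this mean. Against this mean, every ratio was lower than against Ins2 by the gap between these differences. That gap is the same for every gene, and so was the order of the genes. G6pc2 stood at -0.79, -0.89 and -0.96 in Jarid2 Δpanc, against 0.16, 0.33 and -0.49 in Jarid2 WT, a difference of -0.88 ± 0.26 (SE). Abcc8 was at 0.05, 0.29 and 0.05 in Jarid2 Δpanc, just above the Jarid2 WT values of 0.006, -0.002 and -0.004. Slc2a2, Kcnj11 and Trpm5 overlapped, with differences of 0.20, 0.36 and 0.37. Chga, chromogranin A and a general endocrine marker, read 297, 492 and 394 in Jarid2 Δpanc and 434, 390 and 439 in Jarid2 WT, and overlapped as these genes did.

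**Figure D2:**
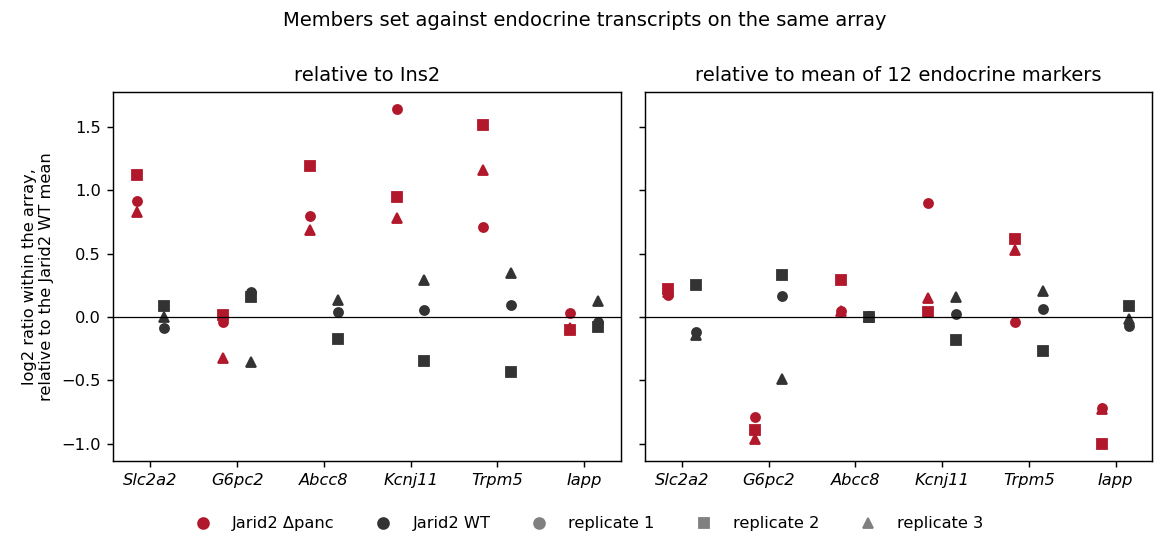
Log2 ratio within each array (y axis, Jarid2 WT mean at 0) of the 5 genes and Iapp to Ins2 (left) and to the mean of 12 endocrine markers (right), for Jarid2 Δpanc (red) and Jarid2 WT (black), with symbols for replicates. Relative to Ins2, G6pc2 and Iapp overlap between the groups while the other 4 genes lie above every Jarid2 WT point.

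Within each array, G6pc2 was also lower relative to each of the other 4 genes. The log2 difference of G6pc2 minus Slc2a2, relative to the Jarid2 WT mean, was -0.96, -1.11 and -1.16 in Jarid2 Δpanc and 0.28, 0.07 and -0.35 in Jarid2 WT. The mean differences were -1.07 ± 0.20 against Slc2a2, -1.01 ± 0.27 against Abcc8, -1.24 ± 0.41 against Kcnj11 and -1.24 ± 0.45 against Trpm5 (SE). In all 4 pairs every Jarid2 Δpanc value was below every Jarid2 WT value. G6pc2 was singled out after its values were seen, so that these pairs carry no test.

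**Figure D3:**
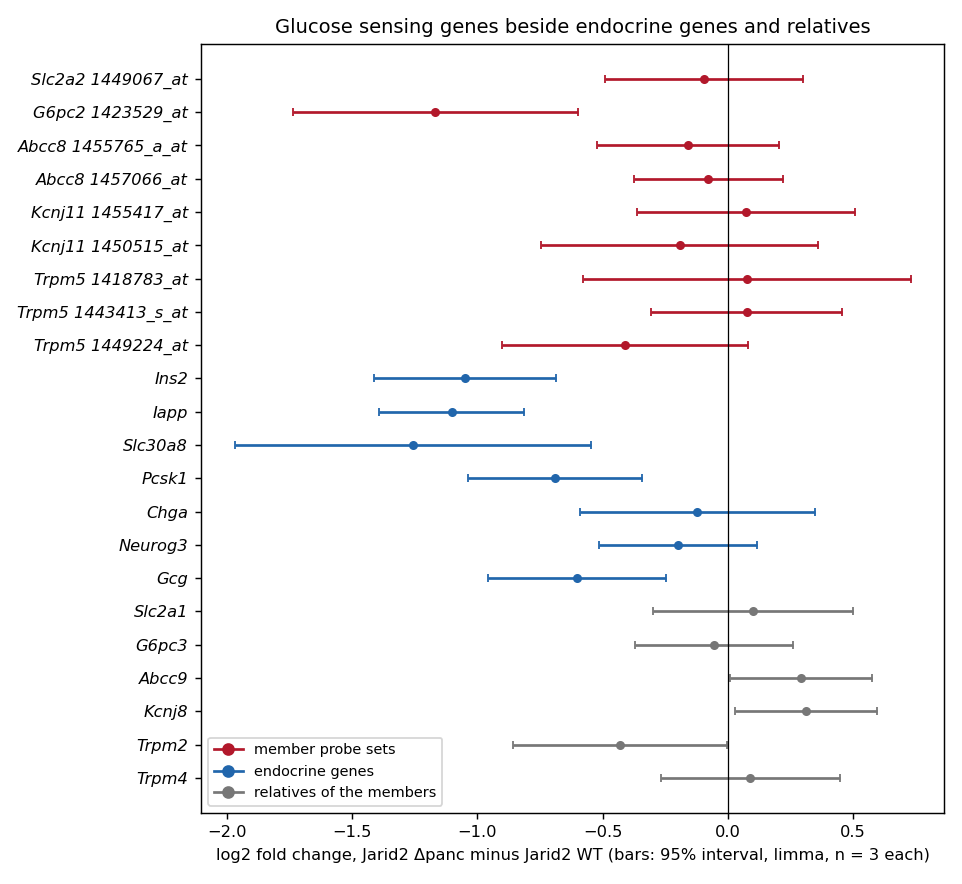
Log2 fold change, Jarid2 Δpanc minus Jarid2 WT (x axis), with the 95% interval from limma (n = 3 each), for the 9 probe sets (red), endocrine genes (blue) and relatives of the 5 genes (grey). The G6pc2 interval, -1.74 to -0.60, lies beside those of Ins2 and Iapp, and the other 8 red intervals cross 0.

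Other genes of glucose uptake and phosphorylation showed nothing of the G6pc2 kind. Of 18 such genes measured, 0 lay below and 0 above all Jarid2 WT values, beside 6.18% and 6.25% of all genes. The median log2 fold change of the 18 was 0.01. Slc2a1, the widespread transporter GLUT1, read 1258, 1306 and 905 in Jarid2 Δpanc and 1124, 995 and 1078 in Jarid2 WT. Hk2, a hexokinase of high glucose affinity, read 371, 394 and 304 in Jarid2 Δpanc and 401, 333 and 402 in Jarid2 WT. G6pc3, the widespread relative of G6pc2, read 143, 138 and 159 in Jarid2 Δpanc and 152, 173 and 134 in Jarid2 WT, and overlapped. G6pc, the liver relative, did not exceed 20 on any array, and Slc37a4, which carries glucose-6-phosphate into the endoplasmic reticulum for these enzymes, read 183 to 205 in Jarid2 Δpanc and 194 to 225 in Jarid2 WT.

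The relatives of the KATP and TRP members held 1 gene below and 2 above all Jarid2 WT values among 10 tested (median 0.10). Over all genes, 6.18% lay below and 6.25% above. Kcnj8 (Kir6.1) and Abcc9 (SUR2), the subunits of the KATP channel of vascular smooth muscle and pericytes, were the 2 above. Kcnj8 read 518, 523 and 482 in Jarid2 Δpanc, against 400, 460 and 372 in Jarid2 WT, a log2 fold change of 0.31 ± 0.12 (SE; limma adjusted p = 0.63). Abcc9 (1435752_s_at) read 591, 621 and 626 in Jarid2 Δpanc, against 443, 508 and 555 in Jarid2 WT, a log2 fold change of 0.29 ± 0.12 (SE; limma adjusted p = 0.653). Both genes were tight in Jarid2 Δpanc, and the 2 further Abcc9 probe sets were also above all Jarid2 WT values, at 150 to 173 in Jarid2 Δpanc and 114 to 131 in Jarid2 WT for 1435751_at, and at 83 to 92 in Jarid2 Δpanc and 65 to 79 in Jarid2 WT for 1420408_a_at. The share of vessel cells in each pancreas was not measured here. Trpm2, a calcium-permeable channel also known from β-cells, read 57, 44 and 66 in Jarid2 Δpanc and 83, 67 and 73 in Jarid2 WT (-0.43 ± 0.18, SE; limma adjusted p = 0.664), a gap of 1 unit between the groups, and its dimmer probe set gave 0.30. Trpm4, the nearest relative of Trpm5, read 123, 128 and 143 in Jarid2 Δpanc and 147, 107 and 119 in Jarid2 WT.

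**Figure D4:**
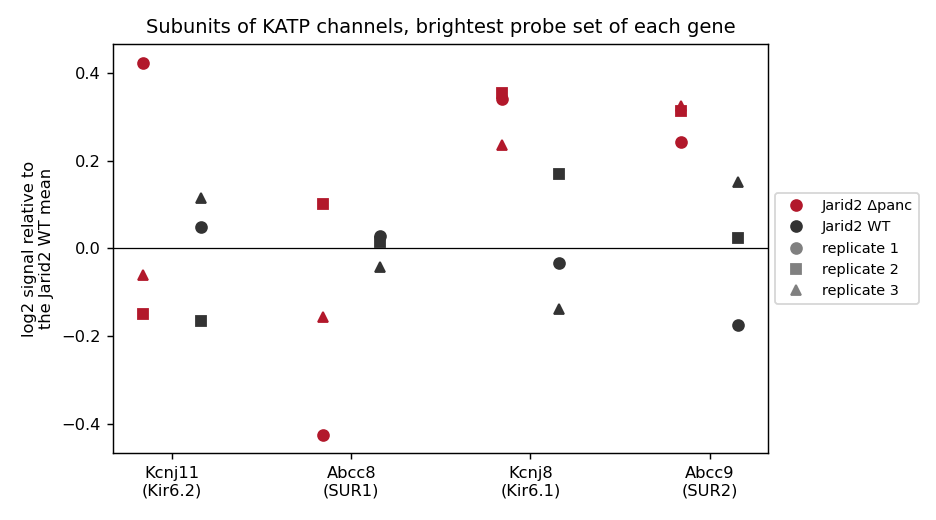
Log2 signal relative to the Jarid2 WT mean (y axis) of the β-cell KATP subunits Kcnj11 and Abcc8 and the vascular subunits Kcnj8 and Abcc9, on the brightest probe set of each, for Jarid2 Δpanc (red) and Jarid2 WT (black). The groups overlap for Kcnj11 and Abcc8 and do not for Kcnj8 and Abcc9, whose log2 fold changes are 0.31 and 0.29.

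Downstream of the KATP channel, 18 voltage-gated and other ion channel genes were tested, with a median of -0.03. Of these, 0 lay below and 1 above all Jarid2 WT values, beside 6.18% and 6.25% of all genes. The gene above, Ano1, a calcium-activated chloride channel, read 476, 535 and 532 in Jarid2 Δpanc and 346, 422 and 426 in Jarid2 WT on 1459713_s_at, whereas its probe set 1426571_at read 73, 73 and 152 in Jarid2 Δpanc and 116, 153 and 111 in Jarid2 WT. The 2 Ano1 probe sets therefore had opposite signs, 0.37 and -0.43. Between glucose-6-phosphate and ATP, 18 genes of mitochondrial coupling had a median of -0.05. Beside the same shares of all genes, 0 of them lay above and 2 below. These were Mdh1, malate dehydrogenase of the cytosol, at 4328, 4367 and 4176 in Jarid2 Δpanc and 5148, 4370 and 4981 in Jarid2 WT, and Pdha1, a pyruvate dehydrogenase subunit, at 803, 910 and 866 in Jarid2 Δpanc and 920, 998 and 938 in Jarid2 WT. The nearest Mdh1 values differed by 3 units on this probe set. Of the other Mdh1 probe sets, 1454925_x_at (2290 to 2599 in Jarid2 Δpanc, 2693 to 2898 in Jarid2 WT) and 1448172_at (1347 to 1520 in Jarid2 Δpanc, 1548 to 1801 in Jarid2 WT) were also below, and 2 dim ones overlapped. The second Pdha1 probe set overlapped, with a log2 fold change of 0.009.

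Marker lists of the endocrine and acinar cells around the 5 genes had medians below 0. Their counts stand beside 6.18% of all genes below and 6.25% above all Jarid2 WT values. Of the 12 shared islet markers, with Neurog3 among them, 6 lay below and 1 above all Jarid2 WT values (median -0.23). Scg2, a granin of secretory granules, was at 61.6% of the Jarid2 WT level and Cpe, which trims prohormones, at 85%. The gene above was the dim Syp, a synaptic vesicle protein gene, at 38 to 42 in Jarid2 Δpanc and 29 to 33 in Jarid2 WT. Of 6 α-cell markers, 2 lay below, Gcg and Ttr (median of the 6 -0.41). The others overlapped, with log2 fold changes of -0.47 for Irx1, 0.02 for Irx2, -0.76 for Pou3f4 and 0.09 for Dpp4. The sum of all 6, most of it Gcg and Ttr, was 11262 to 12935 in Jarid2 Δpanc and 14808 to 16738 in Jarid2 WT. Of 10 acinar markers, 5 lay below, Cela1, Cela2a, Cela3b, Prss2 and Clps (median -0.35), with sums of 58305 to 70070 in Jarid2 Δpanc and 73484 to 85024 in Jarid2 WT. G6pc2 was lower than the medians of these lists, and Slc2a2, Abcc8, Kcnj11 and Trpm5 were nearer to 0 on their brightest probe sets.

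The profiles most like the mean of the 5 genes were sought among 241 genes with a mean signal of at least 100 and a log2 range of at least 1 over the 6 arrays. The centred mean of the 5 brightest probe sets was -0.29, -0.007 and -0.09 in Jarid2 Δpanc and 0.18, 0.17 and 0.03 in Jarid2 WT. The 5 genes did not share it as a profile. Pearson's r between pairs of them ran from -0.89 (Slc2a2 and Kcnj11) to 0.66 (Abcc8 and Trpm5). Gadd45gip1 followed it most closely (Pearson r = 0.98), before 1700086L19Rik (0.95), Trmt1 (0.93), Gjb2 (0.91) and Scg3 (0.90). Gadd45gip1 belongs to the mitochondrial ribosome, Trmt1 methylates tRNA, Gjb2 is the gap junction protein connexin 26 and Scg3 is a granin of secretory granules. Gadd45gip1 read 203, 365 and 341 in Jarid2 Δpanc and 551, 496 and 465 in Jarid2 WT, and Scg3 read 164, 215 and 261 in Jarid2 Δpanc and 325, 357 and 327 in Jarid2 WT. With 6 arrays and 241 genes compared, likeness of this size is a description only.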

How the data were processed

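Transcripts of 6 whole e15.5 pancreases, 3 per group, were hybridised to Affymetrix Mouse Genome 430 2.0 arrays after 2-cycle amplification. The deposited values are linear intensities that the submitters' processing notes credit to MAS5 (version not given), in whole numbers and were found to average 150 on every array once the 2% at either end was trimmed. The methods name RMA and limma, and RMA values were not analysed here. Intensities were floored at 16 before log2 transformation, which understates changes of dim genes. Gene names came from the platform annotation: 34958 of 45101 probe sets carried 1 symbol, 932 several and 9211 none, and those with several or none were left out, as were 3848 at the floor on all 6 arrays. Group differences of the 31110 others came from lmFit and eBayes (limma 3.58.1, R 4.3.3), with Benjamini-Hochberg adjustment over all of them. Intervals are 95%. The brightest probe set stood for a gene where 1 was needed, and levels of different probe sets were not set against each other. Single probe sets were also compared by exact permutation tests, and ratios within arrays are descriptions, although a permutation test had been planned for them. The scripts were tested on simulated data. Sequences are from RefSeq (GRCm38.p6), in which 4 promoters of 3 of the 5 genes were matched.

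The genes and lists were chosen with earlier results of these data known. Named genes were the 5 members, reference genes (Ins2, Iapp, Slc30a8, Chga, Neurog3, Gcg), up to 4 genes per further list whose groups did not overlap (mean signal of at least 64) or otherwise its 2 brightest, and the 5 most alike in profile; others named were chosen after their values were seen. Alternatives were other floors, filters, scalings and variance models, a replicate block, the arrays with high Xist and leaving out each replicate. No depth applies to arrays, and 3 per group limit the precision.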

Additional observations from a re-analysis of the deposited data

How the results depend on the processing

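G6pc2 was lower in Jarid2 Δpanc under all 19 alternatives, by log2 values of -1.43 to -0.64 and with adjusted p of 0.134 to 0.658. It was -0.72 at a floor of 64 and -0.64 on the Xist-high arrays alone, which hold 3 Jarid2 Δpanc arrays and 1 Jarid2 WT array assumed to vary like the others. No member probe set passed an adjusted p of 0.05 in any setting. Abcc8 (1455765_a_at) stayed negative in all 19, from -0.29 to -0.027 with 1 replicate left out (-0.027 without Jarid2 Δpanc replicate 1). Trpm5 1449224_at stayed negative in all 16 that could be fitted, from -0.64 to -0.28 with 1 replicate left out, and -0.07 at a floor of 32. Over all probe sets, 41 were lower and 3 higher with trended and robust variances, 6 lower at a floor of 64, 24 lower on the Xist-high arrays, and 1 higher with probe sets at the floor kept.

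On the Xist-high arrays 2 member probe sets lay below all Jarid2 WT values, and the sign turned for Slc2a2 (0.086), Kcnj11 1455417_at (-0.045), Trpm5 1418783_at (-0.09) and Trpm5 1443413_s_at (-0.002). Leaving out 1 replicate gave 0 to 4 probe sets lower and 0 to 3 higher over all (the highest counts without Jarid2 WT replicate 3), and 1 to 3 member probe sets below (2 without Jarid2 WT replicate 1, with Abcc8 1457066_at; 3 without Jarid2 Δpanc replicate 2, with Abcc8 1455765_a_at and Trpm5 1449224_at). The left-out log2 values spanned -0.18 to 0.042 for Slc2a2, -0.105 to 0.18 for Kcnj11 1455417_at, -0.10 to 0.37 for Trpm5 1418783_at, -0.17 to 0.003 for Abcc8 1457066_at, -0.345 to 0.058 for Kcnj11 1450515_at and -0.046 to 0.22 for Trpm5 1443413_s_at. The cause was not tested. Relative to Ins2 all 5 kept their direction whichever replicate was left out, G6pc2 between -0.29 and -0.015.

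Same-numbered samples were no more alike than others (correlations of same-numbered deviations -0.001, -0.016 and -0.015, of the others -0.011 to 0.026). Litters are not given, so that pairing by litter was not tested. With the replicate block 0 probe sets were lower and 0 higher, and G6pc2 had -1.17 with an adjusted p of 0.658. Some dim member probe sets could not be fitted at floors of 32 and 64.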
